A study of Homo sapiens with 15 samples.

Results

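The PAX genes encode a family of transcription factors, and the levels of its 9 members, PAX1 to PAX9, were examined in C4-2B cells as the paralogue context of PAX5. The members were taken by gene symbol from a list of the family, 9 of the 58302 genes listed in the count tables, and all 9 were found there once as protein-coding genes. C4-2B is an established human prostate adenocarcinoma line derived from LNCaP. It carries the label wild type and was grown in RPMI with fetal bovine serum, with no treatment named. RNA-seq libraries were labelled for 15 samples in 5 groups, and the 3 C4-2B replicates were analysed here. The neuroendocrine-like DKD and ER groups were not analysed here, so no contrast between cell states or with Pax5 depletion was made. The replicates come from 1 cell line, and nothing in the labels says that they were separate cultures, so any p-value measures the spread between these libraries, which may be technical.

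Each PAX protein binds DNA through a paired domain. The subgroup of PAX1 and PAX9 has no homeodomain, that of PAX2, PAX5 and PAX8 has a partial one, and the subgroups of PAX3 with PAX7 and of PAX4 with PAX6 carry a complete one. In development the family marks organ fields: PAX1 and PAX9 act in the sclerotome, the pharyngeal pouches, the thymus and the teeth, PAX2 and PAX8 in the kidney and the thyroid, PAX5 in B cells and the midbrain, PAX3 and PAX7 in muscle progenitors and the neural crest, and PAX4 and PAX6 in the pancreatic islet and the eye. In the study, PAX5 is the factor followed during neuroendocrine-like change, and methylation of CpG sites at its promoter was one of the questions asked.

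The sequence before the start site is therefore shown for PAX9, the member with the highest level, for PAX5, and for PAX8. PAX8 is a paralogue of PAX5 that was also below 1 TPM. Each sequence is the 250 bases before a RefSeq start site (GRCh38.p14, strand of the gene, 5′ to 3′), with every CpG in capitals. The windows are chr14:36657318-36657567 on the plus strand for PAX9, chr9:37034269-37034518 on the minus strand for PAX5 and chr2:113278922-113279171 on the minus strand for PAX8.
PAX9: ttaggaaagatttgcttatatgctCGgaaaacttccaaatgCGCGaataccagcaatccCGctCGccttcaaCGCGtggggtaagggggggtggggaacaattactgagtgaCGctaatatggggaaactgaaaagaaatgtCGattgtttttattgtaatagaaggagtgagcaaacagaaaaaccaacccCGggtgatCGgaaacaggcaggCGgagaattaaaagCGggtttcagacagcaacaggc
PAX5: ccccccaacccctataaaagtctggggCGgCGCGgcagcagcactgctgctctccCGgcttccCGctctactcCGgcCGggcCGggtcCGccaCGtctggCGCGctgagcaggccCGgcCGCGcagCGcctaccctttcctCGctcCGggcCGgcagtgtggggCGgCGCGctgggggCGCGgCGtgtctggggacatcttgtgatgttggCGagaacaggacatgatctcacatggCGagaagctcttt
PAX8: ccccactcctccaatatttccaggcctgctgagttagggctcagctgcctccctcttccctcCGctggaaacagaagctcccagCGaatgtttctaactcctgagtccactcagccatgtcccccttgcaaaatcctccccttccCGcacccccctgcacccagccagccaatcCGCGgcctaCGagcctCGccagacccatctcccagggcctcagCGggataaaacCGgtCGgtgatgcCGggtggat

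The PAX5 window held 27 CpG sites, more than 82.3% of the 35116 RefSeq promoter windows of the same length. The PAX9 window held 13 and the PAX8 window 11, where the median over all windows was 11. These counts also follow base content, since C and G made up 69.6% of the PAX5 window, 46.8% of that of PAX9 and 61.6% of that of PAX8. Relative to the number expected from the C and G of each window, CpG was at 0.892 for PAX5, 1.00 for PAX9 and 0.518 for PAX8. The RefSeq table gave 19 windows for 8 of the 9 members, all but PAX1. Both PAX4 windows were nearly free of CpG, with 0 and 1 sites, and the 9 windows of PAX6 ranged from 3 to 28. The letters TATAAA, read on both strands, occurred in 1 of the 19 windows, that of PAX5, and in 10.7% of all windows.

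C4-2B cells carried RNA of the PAX1 and PAX9 subgroup and very little of any other PAX gene. In units of TPM, which scale a count to gene length and library, PAX9 was at 11.2 ± 0.593 and PAX1 at 4.72 ± 0.595 (SD, n = 3 each), whereas each of the other 7 members had a mean of at most 0.148 TPM. PAX2, PAX8, PAX5 and PAX6 had between 6 and 42 counts over the 3 libraries, and PAX3, PAX4 and PAX7 had 0. The threshold for calling a gene expressed was 1 TPM in each of the 3 libraries, and 2 of the 9 members passed it, against 61.2% of the 19708 protein-coding genes and 32.8% of all listed genes. At the other end, 3 of the 9 members had 0 counts in all 3 libraries, against 12.6% of protein-coding genes.

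**Figure D1:**
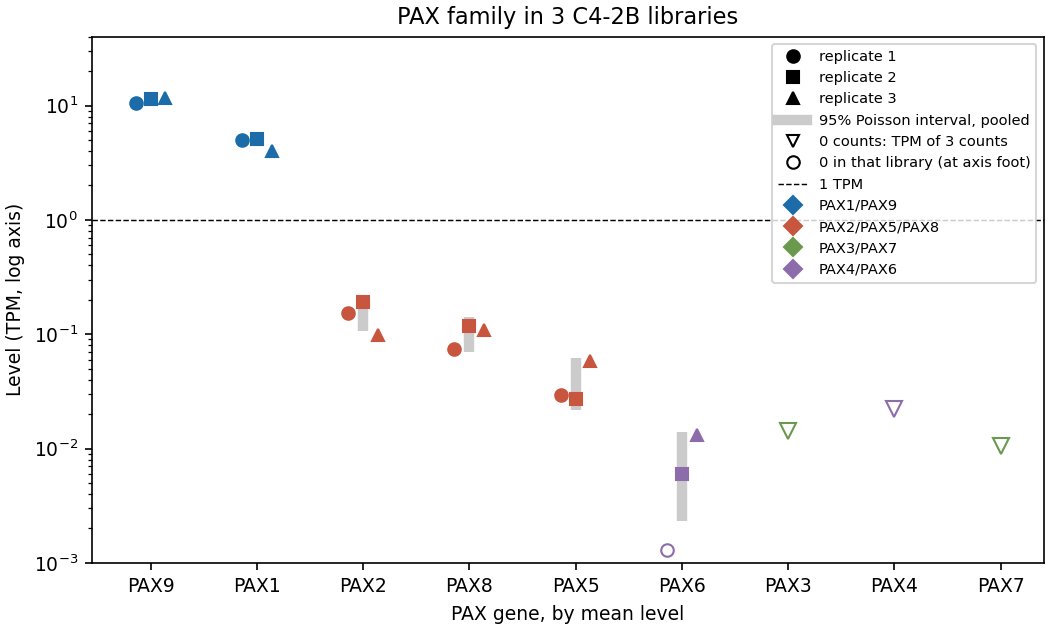
Levels of the 9 PAX genes in TPM (log axis) in 3 C4-2B libraries, one symbol per replicate and one colour per subgroup, with grey bars for the exact 95% Poisson interval of the pooled count. PAX9 and PAX1 lie above the dashed line at 1 TPM in every library, 4 genes lie below 0.2 TPM, open triangles give the TPM that 3 counts would have for the 3 genes with 0 counts, and the open circle at the axis foot is PAX6 in replicate 1, with 0 counts.

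The libraries held 44992971, 49569026 and 46232076 counts in genes. The adenocarcinoma label was checked with 5 luminal prostate genes, which were all far above the PAX family, from 197 TPM for the luminal keratin KRT8 to 1988 TPM for KLK3, the gene of prostate-specific antigen. Of 22229 genes with at least 30 counts, 3835, or 17.3%, passed a chi-square test between libraries at an adjusted p under 0.05. This test takes every count as independent, and with the chi-square divided by 2, since mates of a pair were counted separately, 176 genes passed.

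PAX9 (ENSG00000198807, chromosome 14, 36657568 to 36679715, plus strand, 7 exon blocks) encodes a factor of the pharyngeal endoderm and the jaw. It had 921, 1091 and 1041 counts in replicates 1, 2 and 3, or 10.5, 11.4 and 11.7 TPM. All 3 libraries lay close together, with a coefficient of variation of 5.30%. In the chi-square test its adjusted p was 0.238. Its mean TPM was above that of 57.4% of protein-coding genes, whose median was 5.88 TPM. Of its 6035 exon bases, 7.97% also lie under SLC25A21, a mitochondrial carrier gene on the opposite strand at 1.54 ± 0.168 TPM (SD, n = 3). Reads on shared exon bases were counted for neither gene. Since counting ignored strand, intronic reads of SLC25A21 that fall on PAX9 exons would be counted for PAX9, and their part in its level was not tested.

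PAX1 (ENSG00000125813, chromosome 20, 21705659 to 21718486, plus strand, 5 exon blocks) encodes the closest paralogue of PAX9. It had 422, 479 and 349 counts, or 4.97, 5.14 and 4.04 TPM. Replicates 1 and 2 were alike and replicate 3 was lower. PAX1 was the 1 of 4 testable members to differ between libraries (adjusted p = 0.0117), where 17.3% of all genes tested did. With the chi-square divided by 2 its adjusted p was 0.384, and without replicate 3 it was 0.842. No exon base of PAX1 is shared with another listed gene. Its mean TPM was above that of 48.1% of protein-coding genes.

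PAX9 exceeded PAX1 in every library. The ratio of their TPM was 2.12, 2.21 and 2.89 in replicates 1 to 3, highest in the library where PAX1 was lowest. Over the summed counts, PAX9 had 2.37 times the counts per exon base of PAX1 (exact 95% interval 2.22 to 2.53). Together the 2 genes made up 98.2% ± 0.205 of the summed TPM of the family (SD, n = 3), which was 15.8, 16.8 and 16.0 TPM in the 3 libraries. The subgroup of PAX2, PAX5 and PAX8 made up 1.77% ± 0.202, PAX4 with PAX6 0.0391% ± 0.0408, and PAX3 with PAX7 had no counts.

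PAX2 (ENSG00000075891, chromosome 10, 100735603 to 100829941, plus strand), a regulator of kidney and urogenital development, had 14, 19 and 9 counts, or 0.155, 0.191 and 0.0976 TPM. PAX8 (ENSG00000125618, chromosome 2, 113215997 to 113278950, minus strand), which drives thyroid and kidney genes, had 8, 14 and 12 counts, or 0.0746, 0.119 and 0.110 TPM. The libraries of both genes overlapped, and neither gene passed the test between libraries (adjusted p = 0.411 for PAX2 and 0.702 for PAX8 in the chi-square test over all genes). PAX8 shares 9.26% of its exon bases with PAX8-AS1 on the opposite strand, which itself had 21 counts, and reads on those bases were counted for neither gene.

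PAX5 (ENSG00000196092, chromosome 9, 36833275 to 37034185, minus strand, 11 exon blocks), the determinant of B cell identity, had 4, 4 and 8 counts, or 0.0296, 0.0269 and 0.0580 TPM. At 1 TPM its 9333 exon bases would have collected 422 counts over the 3 libraries, and 16 were seen. The exact Poisson interval of the pooled level reached from 0.0217 to 0.0616 TPM. Since mates were counted separately, this interval is too narrow, and with counts halved to read pairs its upper bound was 0.0748 TPM. Replicate 3 held as many counts as the other libraries together, but with so few counts PAX5 was below the minimum for the test between libraries. Its exons share 0.857% of their bases with ENSG00000250850, a lncRNA gene on the opposite strand with 0 counts. PAX5 was above 19.6% of protein-coding genes in mean TPM.

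The other members were at or near the limit of counting. PAX6 (ENSG00000007372, chromosome 11, 31784779 to 31818062, minus strand), the eye and islet regulator, had 0, 2 and 4 counts, a pooled level of 0.00638 TPM with a Poisson interval of 0.00234 to 0.0139. Halving the counts of PAX6 to read pairs put its upper bound at 0.0186 TPM. Of its 20812 exon bases, 25.7% were closed to counting because they lie under exons of ELP4 and RCN1 on the opposite strand, which were at 2.38 and 34.3 TPM. PAX3 (ENSG00000135903, chromosome 2, 222199888 to 222298996, minus strand), PAX4 (ENSG00000106331, chromosome 7, 127610292 to 127618114, minus strand) and PAX7 (ENSG00000009709, chromosome 1, 18631006 to 18748866, plus strand) had 0 counts in every library. A count of 0 allows up to 0.0143 TPM for PAX3, 0.0223 TPM for PAX4 and 0.0105 TPM for PAX7, taking the level of 3 counts. With counts halved to read pairs, the exact Poisson upper bounds were 0.0352, 0.0549 and 0.0259 TPM. These 3 limits are above the level measured for PAX6, so the order of PAX6 and the genes at 0 was not detectable at this depth.

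**Figure D2:**
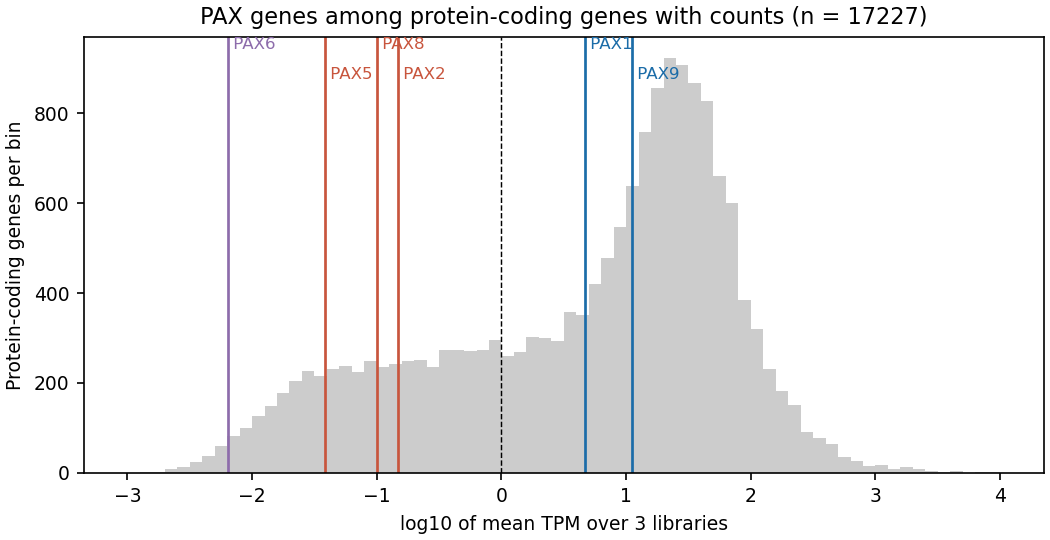
Histogram of the mean TPM (log10) of 17227 protein-coding genes with at least 1 count, with vertical lines at the 6 PAX genes that had counts, coloured by subgroup. PAX1 and PAX9 stand on either side of the median of all protein-coding genes, 5.88 TPM, and PAX2, PAX8, PAX5 and PAX6 stand in the lower tail, left of the dashed line at 1 TPM.

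To set the order of the levels, neighbours were compared by their counts per exon base in the same libraries. PAX1 exceeded PAX2 by 31.7 times (exact 95% interval 23.3 to 44.3), the widest gap in the family, and their libraries did not come near each other. PAX2 and PAX8 were not separated: the ratio was 1.46 (0.909 to 2.37), their ranges over the libraries overlapped, and PAX2 was the higher in 2 of 3 libraries. The ratio of PAX8 to PAX5 was 2.68 (1.44 to 5.20) and that of PAX5 to PAX6 was 5.95 (2.21 to 18.6), with no overlap between libraries in either pair. The interval of PAX8 over PAX5 reached below 1 without replicate 2, at 2.10 (0.979 to 4.72). The interval of PAX2 over PAX8 left 1 without replicate 3, at 1.78 (1.01 to 3.20). Against PAX5, PAX9 had 295 times the counts per base of PAX5 (181 to 517). The intervals cover counting error only, and with mates counted separately they are too narrow.

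**Figure D3:**
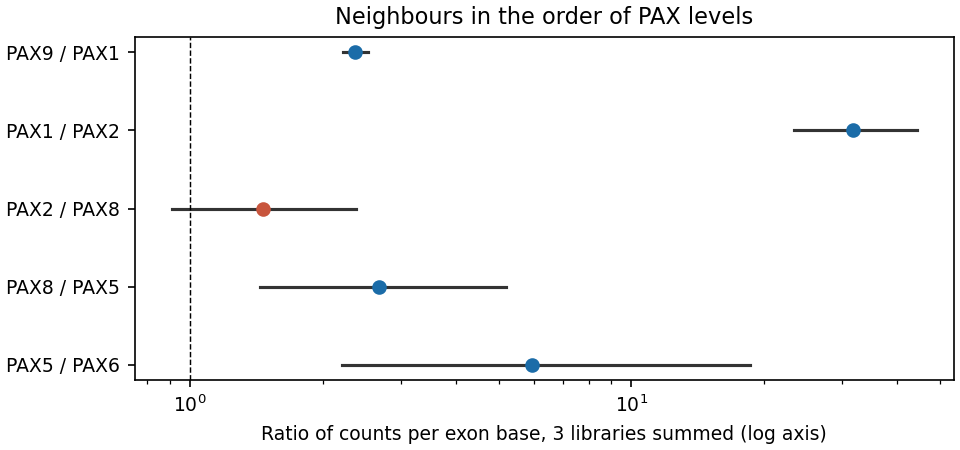
Ratio of counts per exon base (log axis) between neighbours in the order of PAX levels, summed over 3 C4-2B libraries, with exact 95% intervals as bars. The bars of 4 pairs lie above the dashed line at 1, and that of PAX2 over PAX8 (0.909 to 2.37) crosses it.

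Whether reads could pass from one paralogue to another was examined in the transcripts of GENCODE release 44. The longest exact run of bases that any pair of members shares, on either strand, was 37 bases, between PAX5 and PAX6. PAX1 and PAX9 shared at most 23 bases. In their proteins, PAX1 and PAX9 were identical at 67.4% of aligned residues, PAX2 and PAX5 at 73.1%, PAX5 and PAX8 at 61.2%, and PAX3 and PAX7 at 79.2%. The highest identity between subgroups was 45.1%, of PAX6 with PAX7, below that of every pair within a subgroup. In the longest stretch without a gap in any member, 47 residues of the paired domain, 24 positions were identical in all 9 proteins. PAX1 and PAX9 matched PAX5 at 72.3% of this stretch, and PAX2 matched it at 93.6%. An octapeptide-like motif was found in 7 proteins, all but PAX4 and PAX6, and the homeodomain recognition helix in 4, PAX3, PAX4, PAX6 and PAX7. The 2 members above 1 TPM are therefore those with an octapeptide and no homeodomain helix, a combination also found in PAX2, PAX5 and PAX8.

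**Figure D4:**
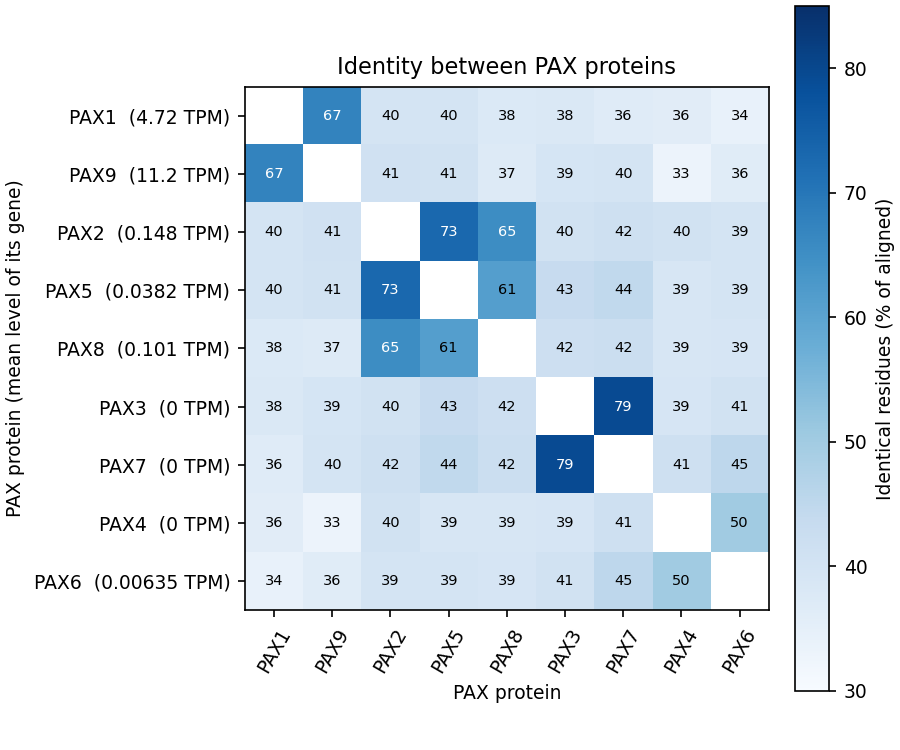
Identity between PAX proteins of GENCODE release 44, as the percentage of aligned residues that are identical, with the mean TPM of each gene over 3 C4-2B libraries beside its name. The darkest squares are pairs within a subgroup, such as PAX1 with PAX9 at 67.4%, while PAX4 with PAX6, also within a subgroup, is paler at 50%. The subgroup with PAX1 and PAX9 holds both genes above 1 TPM.

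The genes around each member were then read, as protein-coding genes within 250 kb, a window chosen after the levels were known. PAX5 lies between MELK, a mitotic kinase gene at 94.1 ± 2.13 TPM, and ZCCHC7, at 21.0 ± 0.636 TPM (SD, n = 3 each). PAX4 has SND1 nearby at 266 ± 5.40 TPM, and for PAX2 11 of 12 neighbours reached 1 TPM in all libraries. PAX8 had 3 of 9 such neighbours. Of the 4 neighbours of PAX9, SLC25A21 reached that level, NKX2-1, the lung and thyroid regulator, had 2, 2 and 1 counts, NKX2-8 had 0, 6 and 16 counts, and SFTA3 had 0. The single neighbour of PAX1, the neural and islet factor NKX2-2, was at 0.895 ± 0.141 TPM (SD, n = 3). Over all members, 26 of 40 neighbours reached 1 TPM in all libraries, a share near the 61.2% of all protein-coding genes, so the counts around single members are given as a description.

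RNA of genes for proteins that bind PAX factors was at higher levels than that of most PAX genes. Of 10 genes for PAX-binding proteins and corepressors, 9 were at 1 TPM or more in all libraries, with a median of 22.5 TPM against 0.0382 TPM for the 9 PAX genes and 5.88 TPM for all protein-coding genes. TLE5 was at 72.8 ± 1.21 TPM, DAXX at 66.9 ± 1.302 and TLE3 at 60.4 ± 0.410 (TPM, SD, n = 3). TLE1 to TLE4 encode Groucho corepressors, TLE5 encodes a short member of that family, and DAXX encodes a histone chaperone that binds PAX3 and PAX5. TLE4, the corepressor best known as a partner of PAX5, had 26, 8 and 28 counts, at 0.171 ± 0.0948 TPM, and was the gene of this list below 1 TPM. It is named here after its values were seen. Factors of the SIX4, EYA and DACH type, which act with PAX genes in one network during organ formation, reached 1 TPM in 4 of 12 cases, led by EYA3 at 34.7 ± 0.322 and SIX4 at 27.6 ± 1.44 TPM. PBX, MEIS and PKNOX homeodomain factors did so in 6 of 9 cases, led by PBX2 at 29.7 ± 0.882, PKNOX1 at 12.9 ± 0.870 and PBX3 at 5.74 ± 0.386 TPM.

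Genes known from the organs where each PAX subgroup acts were mostly low. In the sclerotome, tooth and thymus list, the setting of PAX1 and PAX9, 3 of 9 genes reached 1 TPM in all libraries: SOX9 at 13.3 ± 0.219, MSX2 at 9.22 ± 1.09 and MSX1 at 7.08 ± 0.101 TPM, while MEOX1, MEOX2 and UNCX had 0 counts. The median of this list was 0.357 TPM. In the kidney, thyroid and Müllerian list 2 of 12 did so, WT1 at 5.16 ± 0.675 and HHEX at 1.51 ± 0.397 TPM. The eye and islet list had 3 of 13, among them NKX6-1 at 2.02 ± 0.129 and GCG at 1.76 ± 0.232 TPM. The muscle, neural crest and melanocyte list had 1 of 9, MITF at 5.39 ± 0.554 TPM, followed by MET at 0.342 ± 0.0357 and TYRP1 at 0.323 ± 0.0890 TPM. These shares stand beside 61.2% of all protein-coding genes.

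B cells are the usual source of PAX5 RNA, and 15 B cell genes were read beside its level. The defining markers were at or near 0, with 0 counts for MS4A1 and CD79B, 3 for CD79A and 2 for PTPRC over the 3 libraries. CD22 had 4, 4 and 8 counts. Of the whole list, 3 of 15 genes reached 1 TPM in all libraries, IKZF3 at 8.69 ± 0.114, LEF1 at 2.79 ± 0.604 and BLNK at 1.67 ± 0.191 TPM, and 4 had 0 counts. The summed level of the list ranged from 13.4 to 14.6 TPM over the libraries, most of it from IKZF3. In bulk RNA, a low level in every cell and a higher level in few cells cannot be told apart.

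**Figure D5:**
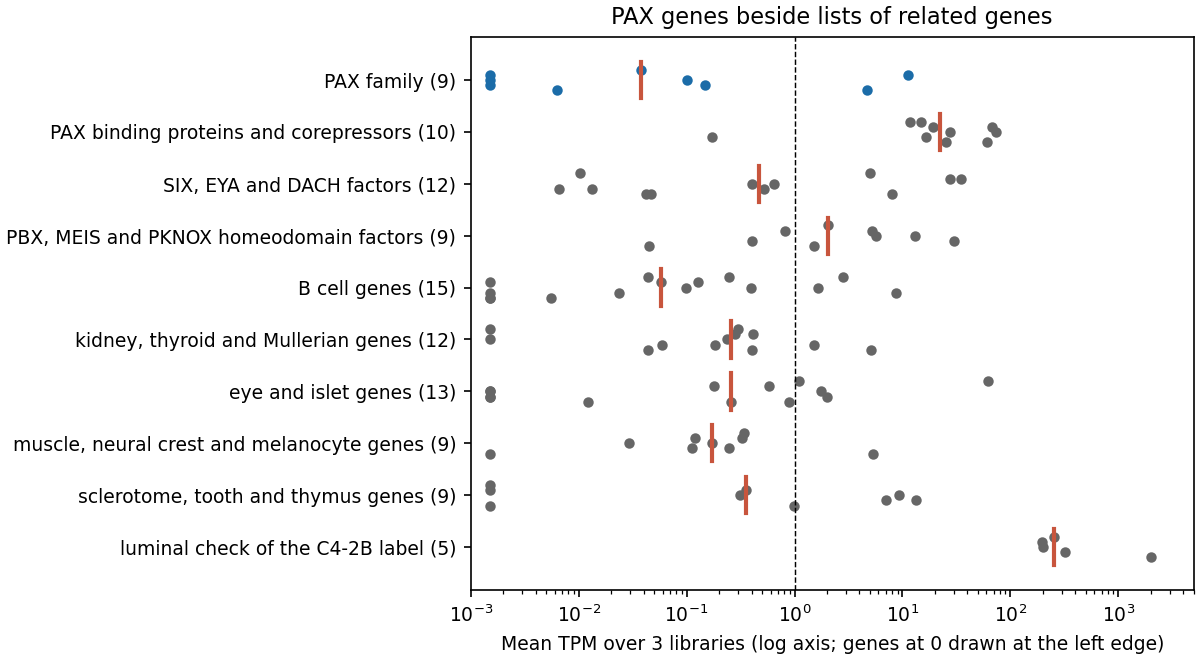
Mean TPM over 3 C4-2B libraries (log axis) for the 9 PAX genes (blue) and for genes of 9 other lists (grey), with list medians as red bars and genes at 0 counts at the left edge. Binding proteins and corepressors have a median of 22.5 TPM and the PAX genes one of 0.0382 TPM, near that of the B cell list.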

How the data were processed

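Total RNA of C4-2B cells was depleted of ribosomal RNA, made into directional libraries and sequenced as paired ends. Per the labels and file headers, the authors aligned reads to GRCh38 with STAR 2.7.0f and deposited raw counts per gene from featureCounts (Subread 1.6.3, Ensembl release 90), with no normalization. The recorded command set neither strand nor fragments, so strands were merged and mates counted separately. The deposited length column, another value per gene from the authors' files, is the union of a gene's exons.

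TPM was computed from counts and deposited lengths. Symbols were matched by Ensembl identifier for 57532 of 58302 genes, and gene types came from GENCODE release 44. Libraries were compared across all genes by a chi-square test of 3 counts against TMM-scaled totals (edgeR 4.0.16, 2 degrees of freedom, at least 30 counts, Benjamini-Hochberg adjustment, threshold 0.05). This test assumes independent counts. Intervals of counts are exact Poisson, those of ratios exact conditional (Clopper-Pearson), both at 95%. The limit for 0 counts is the TPM of 3 counts over the 3 libraries. PCR copies were not marked, so these cover counting error only. Proteins were aligned with MAFFT 7.526. The members and gene lists were chosen with earlier results of these data known. Genes named are the 9 members, genes sharing their exons, the 3 highest genes of each list and 3 B cell markers, and others are named after their values were seen, as are neighbours. Some genes that this rule names are not reported here. Replicates were taken from the sample titles. Alternatives were other units, lengths, count minimums, DESeq2 1.42.0 size factors, counts halved to read pairs and each replicate left out.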

Additional observations from a re-analysis of the deposited data

How the results depend on the processing

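PAX1 and PAX9 were the 2 members at 1 TPM or more in all libraries under every alternative run: CPM, a denominator without the 10 most abundant and mitochondrial genes, exon bases outside overlaps as length, a threshold of 0.1 TPM, and each replicate left out. The number of all such genes ranged from 14999 with CPM to 26535 at 0.1 TPM. Their share of the family was 97.8% with CPM, which ignores length. CPM moved the level of 6 of 9 members by over 1 SD, and the rest were PAX3, PAX4 and PAX7, which stay at 0 in any unit. CPM and TPM are different scales, so the size of this move does not measure robustness. The denominator without the 10 most abundant and mitochondrial genes, which also rescales the unit, moved 4 members. With the chi-square divided by 2, 176 genes and 0 members differed between libraries. Leaving out replicates gave from 1383 to 2324 genes and from 0 to 1 members, 0 being without replicate 3. DESeq2 size factors, unscaled totals and minimums of 10 or 1 counts kept PAX1 as the 1 member called. No order of neighbours reversed. No paired analysis was possible because the count tables cover C4-2B alone, which leaves no second group to pair with.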
